A study of Caenorhabditis elegans with 2 samples.

Results

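Coding exon peaks are the peaks called for tagged DMD-8 in Caenorhabditis elegans whose summit, the base of highest signal, lies in protein-coding sequence. They numbered 221 of the 1537 peaks (14.4%) in the authors' conservative list, and 206 protein-coding genes held them. They were chosen by that measured list, and within it by position. The summit had to lie in an annotated coding exon, outside every stretch from 1000 bp before to 200 bp after a protein-coding 5′ end, outside annotated untranslated regions and more than 200 bp from every tRNA, snoRNA and snRNA gene. Presence in the list, signal and location are therefore given as descriptions, without a test.

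Chromatin immunoprecipitation followed by sequencing was done on strain OP775, as whole L4 larvae aged 48.5 hours that had been synchronised by bleaching and starvation at L1. The strain carries the integrated transgene wgIs775, dmd-8 tagged with TY1, EGFP and 3xFLAG together with an unc-119(+) rescue, in the mutant background unc-119(tm4063). Chromatin was sonicated and precipitated with an antibody against GFP. The 2 biological replicates form the only group, both carry the transgene, and the data of the control named in the deposited notes were not analysed here. The tagged protein comes from a transgene and not from the dmd-8 locus itself. In whole worms, binding in few cells and weak binding in many cannot be told apart. The peak lists give no read depth.

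DMD-8 is a DM domain protein, of a family named after Doublesex of the fly and MAB-3 of the worm. These proteins bind DNA through intertwined zinc-binding modules and are known above all for sex-specific development of neurons, gut and gonad. Transcription factors usually act from promoters and enhancers. Exons hold the codons of the protein, so the base content of a peak inside one is tied to the amino acids the gene encodes.

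The summits of 6 of the 7 strongest members are shown here so that the bases under high signals can be read. The one not shown is lmd-2, second by signal. Coding GC content near the summit exceeded that of the rest of the transcript in the 6 shown and was below it in lmd-2, with 36.6% against 41.5%. Each line gives 30 bases around the summit, read 5′ to 3′ on the coding strand of assembly ce11, with the codon that holds the summit in capitals.
dos-3, chrIII:835929-835958, minus strand: aacgtggattggctcCAGggccaaatcgct
Y43F8B.2, chrV:19520282-19520311, minus strand: ccatgtgcatccctcCAGtctccatctctt
mnk-1, chrII:10547370-10547399, minus strand: cgtgacaccgaccacGTGttcggagagttt
pals-26, chrIII:4378759-4378788, plus strand: gtgcagcagagcattGAGgatggagaaatg
pks-1, chrX:5429502-5429531, plus strand: gtcaaccagcagtacCCCttccactctaac
stdh-1, chrV:13907737-13907766, plus strand: gcaacaaaaatggctGGAaacccgaatacg
The capitals fall on codon 671 of dos-3, 276 of Y43F8B.2, 136 of mnk-1, 413 of pals-26, 3837 of pks-1 and 241 of stdh-1.

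A second set is shown because cuticle collagens were the gene list with the most hosts. Glycine codons can be read in each collagen stretch printed, and proline codons in those of col-93, col-8 and col-105. They were picked from 14 collagen members. The stretch at the summit of col-104, not shown, holds neither kind of codon. Coding GC content at the summit was below the rest in col-104 alone of the 14, with 53.5% against 57.1%. The last line is the member of highest GC content, in grsp-1.
col-77, chrII:8358816-8358845, minus strand: gagaggacggacgtGACggaaacgacggac
col-93, chrIII:10984930-10984959, minus strand: caaagggagccccaGGAgccccaggaaacc
col-8, chrIII:7019957-7019986, minus strand: gagagcagggagacGCCggtcgaccagggg
col-105, chrIV:1358104-1358133, minus strand: tcctggtgagcctGGAccaccaggtgcgca
grsp-1, chrV:19610261-19610290, plus strand: tggctggggaggcAACaggtggggcggcgg

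The signal of the members, the authors' value from the peak caller, was narrow in range. It had a median of 81.8, the middle 50% of members lay between 74.9 and 88.2, and 173 of the 221 fell between 70 and 100. Only 20 members reached 100 and 7 lay under 50. The highest value was 173.24 in dos-3, which ranked 150 in the conservative list. The median was 90.6 over the whole list, 83.4 over the 221 peaks in introns away from small RNA genes, 86.9 over the 352 promoter peaks away from small RNA genes and 135.7 over the 436 peaks at small RNA genes. The highest intron peak reached 527.5. All 221 members were 280 bp long. The deposited −log10 q-value of the members ran from 0.051, in tps-2, to 1.36, in lmd-2. It was 0.80 in T02G5.7, the member at the median signal. Only the members in dos-3, lmd-2 and Y43F8B.2 and the stronger one in mnk-1 had a q-value below 0.05. The −log10 of the irreproducible discovery rate (IDR), which scores how well a peak's rank repeats between lists, ran from 2.00 to 3.48 with a median of 2.28, where 2 is the limit of the list.

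Most members were absent from both replicates' own thresholded lists. In the list of replicate 1 there were 21 members, which is 9.50% (exact 95% interval 5.98 to 14.2), against 35.1% of all conservative peaks. In the list of replicate 2 there were 16, which is 7.24% (4.19 to 11.5), against 30.6%. Both lists held 5 members, or 2.26%, against 22.7%, and neither held 189, or 85.5% (80.2 to 89.9), against 57.1%. Intron peaks were in neither list in 64.7% of cases and promoter peaks in 69.0%. The 52 peaks in untranslated regions were in neither in 78.8% (65.3 to 88.9), an interval that overlaps that of the members. For peaks at small RNA genes it was 23.2%. The intervals cover counting of peaks only, and neighbouring peaks of the same list are not independent. The thresholded lists of the replicates are shorter, with 629 and 545 peaks. They follow the IDR of the peak within that replicate rather than its signal. Every member in a replicate's list, and no member absent from it, had a ranked peak in that replicate within the IDR limit of 0.01. By signal the 2 sets overlapped, since a member in hsp-110 at rank 504 was absent from the list of replicate 2 while the weakest member in that list had rank 2076. Per the deposited notes the thresholded lists also rest on a further file of unstated content.

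Nearly every member was nevertheless found in the longer ranked lists, which hold 82083 nuclear peaks for replicate 1 and 72354 for replicate 2. In the first 219 members had a peak and in the second 220. Missing from replicate 1 were col-13 and Y46H3D.1, and missing from replicate 2 was lact-9. The median rank was 1799 in replicate 1 (best 290, lowest 6275) and 2091 in replicate 2 (best 203, lowest 6405). The replicate's own summit lay a median of 11 bp from the member's summit in replicate 1 and 26 bp in replicate 2. Over the 218 members in both ranked lists the signals of the replicates had a Spearman correlation of -0.196, which is a description of peaks picked for a high combined value in shared lists.

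**Figure D1:**
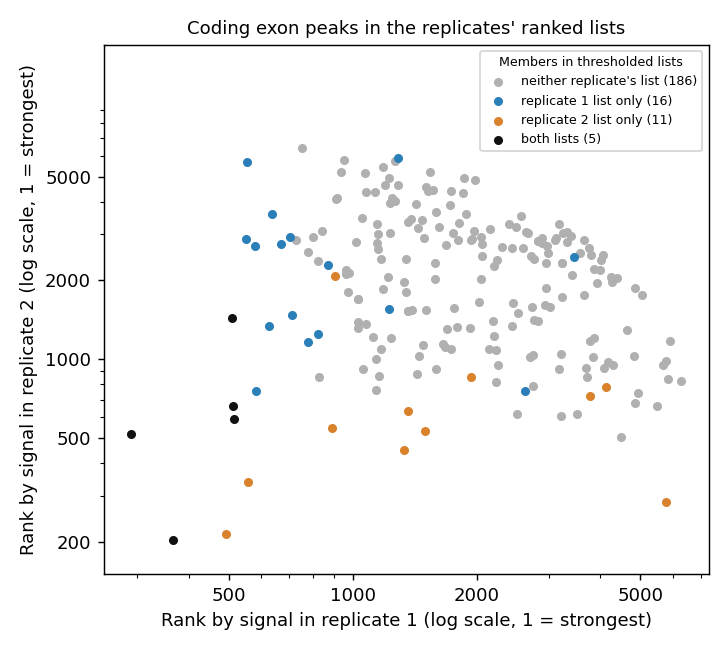
Rank of each of the 218 members found in both ranked lists, by signal in replicate 1 (horizontal, log scale) and replicate 2 (vertical, log scale), where rank 1 is the strongest peak. Colours give membership of the replicates' thresholded lists, and the 5 members in both lists have ranks from 290 to 516 in replicate 1 and from 203 to 1431 in replicate 2. The 186 plotted members in neither list fill the middle. They include the lowest ranks, 6275 in replicate 1 (ptr-21, 827 in replicate 2) and 6405 in replicate 2 (hphd-1, 754 in replicate 1). The 3 members missing from a ranked list, all in neither thresholded list, are not plotted.

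The member of highest signal lay in the last exon, 11 of 11, of dos-3, a gene of the DOS family of secreted or membrane-bound partners of Notch ligands (chromosome III, 835803 to 836082). Its signal was 73.5 in replicate 1 and 90.96 in replicate 2, at ranks 367 and 203, high in both. The peak in mnk-1, which encodes a kinase of the translation initiation factor eIF4E, had signals of 81.3 and 59.5 at ranks 290 and 517 (chromosome II, 10547244 to 10547523, exon 2 of 7). A second member in exon 3 of mnk-1 had a signal of 85.8 in the conservative list and was in the list of replicate 2 only.

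The other 3 members in both replicates' lists were as follows. One lay in exon 22 of 30 of pks-1, a polyketide synthase gene, with signals of 62.99 and 56.02 at ranks 516 and 589. Another lay in the last of 4 exons of stdh-1, of a steroid dehydrogenase family, with 63.4 and 53.2 at ranks 512 and 661. The third, in Y48G1BM.10, was less even, with 63.8 and 41.98 at ranks 509 and 1431.

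The other members among the 12 strongest differed between replicates to various degrees. Those in lmd-2, a gene of the LysM domain family (conservative signal 156.4), and in Y43F8B.2 (144.8) were in the list of replicate 2 only, at ranks 492 and 557 in replicate 1 and 213 and 339 in replicate 2. The member in pals-26, of a family whose known members respond to intracellular pathogens, had a signal of 123.1 and ranks of 584 and 757, and like the next pair was in the list of replicate 1 only. The member in wrt-2, a hedgehog-related gene, had 109.2 and ranks of 580 and 2717, high in replicate 1 alone. The member in icl-1, which encodes the bifunctional enzyme of the glyoxylate cycle, had 104.8 and ranks of 627 and 1339. The member in C53C11.4 had 106.6 and ranks of 1502 and 529, was in the list of replicate 2 only, and 61.9% of the 50-base words of its peak occur more than once in the genome.

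The most uneven of the 12 lay in abt-4, an ABC transporter gene of the A subfamily, which is a neighbour of dmd-8. Its signal was 33.4 in replicate 1 and 79.7 in replicate 2, at ranks 5767 and 283. The other members in abt-4 had conservative signals of 104.4 and 76.4, with ranks of 3209 and 607 for the first and 2054 and 2031 for the second. These 3 were the only members within 50 kb of dmd-8 (chromosome V, 334601 to 336450), where the conservative list holds 7 peaks with signals from 56.2 to 151.5. No member lay within 50 kb of unc-119, the marker gene of the transgene. The extent of the genomic insert of the transgene is not given in these sources, so its part in the abt-4 peaks was not tested.

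Of the 206 host genes, 193 held 1 member, 11 held 2 and 2 held 3. Beside abt-4 the other gene with 3 was prg-1, the Piwi Argonaute of the germ line, with signals of 74.9, 64.8 and 62.2 in exons 5, 9 and 7, ranks between 2067 and 2753 in replicate 1 and between 2424 and 2656 in replicate 2, and none in a replicate's thresholded list. Its members were thus weak and even. Hosts of 2 separate members were mnk-1, Y62E10A.13 (89.9 and 63.3), cars-1, the cysteinyl tRNA synthetase (77.6 and 72.1), the cuticle collagen col-51 (84.2 and 78.3), epic-2 (83.6 and 76.8), hphd-1, a hydroxyacid-oxoacid transhydrogenase gene (81.8 and 75.98), the chaperone gene hsp-110 (79.7 and 59.3) and ltah-1.2, related to leukotriene A4 hydrolase (97.7 and 71.1). The first member of ltah-1.2 was in the list of replicate 1, and none of the others from Y62E10A.13 on was in a replicate's list.

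Of the 7 members with signals under 50, 5 overlapped a stronger peak and 2, in T19A5.3 (39.7) and cpr-1 (42.5), overlapped none. In tps-2, a trehalose 6-phosphate synthase gene, signals of 83.0 and 2.82 stood 207 bp apart. In ncl-1, a regulator of nucleolar size, they were 82.1 and 6.09, and in ptr-12, a patched-related gene, 76.97 and 7.73. Within each of these 3 pairs both members matched the same ranked peak in each replicate. The member in rpc-2 (9.05) overlapped a peak of the promoter class. That in plpr-1 (42.1) overlapped a peak with its summit 206 bp away, while the nearest promoter window lay 1166 bp away. Altogether 10 members overlapped another conservative peak, and merging members left 218 distinct regions.

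Sequence composition was not used in choosing the members and was tested. Summits of coding exon peaks were richer in G and C than the rest of the coding sequence of the same transcript. Among the coding bases within 50 bp of the summit the median GC content was 51.5%, against 47.0% in the rest, over the 220 members with enough coding bases for the comparison. The median difference was 3.87 percentage points, the middle 50% of members lay between 0.77 and 8.03, and the extremes were -10.2 and 19.97. It was higher at the summit in 175 members and lower in 45 (exact sign test, two-sided, Benjamini-Hochberg adjusted over 3 measures, p = 4e-19).

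The difference passed at the first and second codon positions, which mostly set the amino acid, and did not pass at the third. At first and second positions the median was 52.2% at summits and 47.4% in the rest, a median difference of 5.12 points (middle 50% from 1.12 to 11.8), higher in 175 members and lower in 45 (exact sign test, adjusted p = 4e-19). At the third position, which in most codons can change while the amino acid does not, the medians were 45.5% and 44.1%, a median difference of 1.07 points (middle 50% from -7.87 to 8.09), higher in 117 of 220 members (exact sign test, adjusted p = 0.381). Values at the third position spread more widely, from 6.06% upward at summits. A difference between the first 2 positions and the third was not itself tested. With a promoter window of 2000 bp the third position came nearest to passing. Its median difference was then 2.84 points over 164 members (exact sign test, adjusted p = 0.0506). When the same position rules were applied to a replicate's own thresholded list, the direction at the third position turned in the list of replicate 1 (-3.29 points, 32 peaks) and not in that of replicate 2 (2.86 points, 29 peaks), and neither passed.

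**Figure D2:**
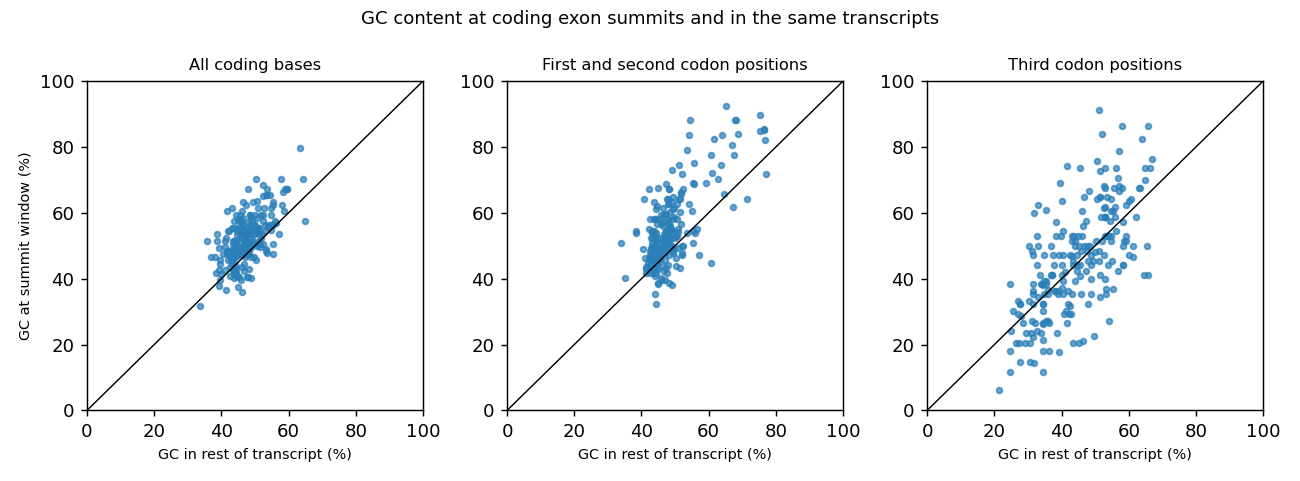
GC content of the coding bases within 50 bp of each member's summit (vertical, %) against the rest of the coding sequence of its transcript (horizontal, %), for all bases, first and second codon positions, and the third position, with 1 point per member and the line of equal values. Most points lie above the line in the first 2 panels (175 of 220 in each), and 117 of 220 do so in the third.

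The codons themselves were counted as a description. Of 7061 codons at summits, 9.94% began with GG, which encode glycine, against 6.65% of 154150 codons in the rest of the same transcripts. Alanine codons, starting with GC, made up 10.2% against 7.18%, and proline codons, starting with CC, 8.70% against 5.91%. Codons starting with AA, for lysine and asparagine, made up 7.85% against 10.5%. Those starting with GA, for glutamate and aspartate, made up 10.3% against 12.2%, and those starting with AT, mostly isoleucine, 6.16% against 7.77%. Codons of 1 gene are not independent of each other, and summits in collagens add many glycine and proline codons.

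GC content peaked at the summit. The mean over the members was 51.97% in the 51 bp at the summit and 41.9% and 42.1% at 200 bp on either side, then stayed between 37.5% and 40.2% at the distances of 400 to 1000 bp given in steps of 200 bp. Coding share fell along with it, from 97.6% at the summit to 60.2% and 59.8% at 200 bp. Among coding bases alone the GC content was 52.4% at the summit and 47.9% and 48.8% at 200 bp. Intron peaks had nearly the same height, 50.6% at the summit, with few coding bases there. The median over all bases within 50 bp of the summit was 50.5% for coding exon, intron and promoter peaks alike, so GC-rich summits were not particular to exons.

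**Figure D3:**
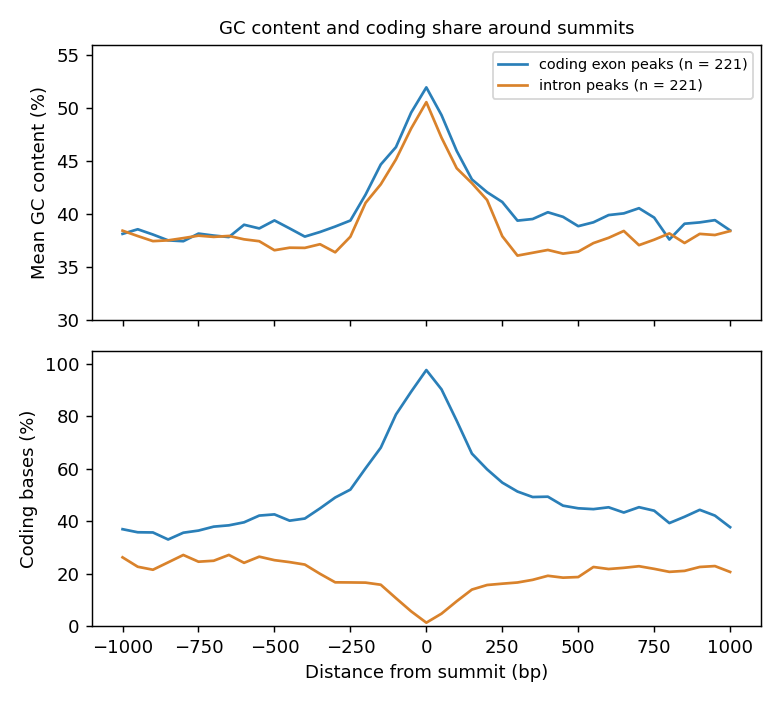
Mean GC content (upper panel, %) and share of coding bases (lower panel, %) in 51 bp windows at each distance from the summit (bp, along the plus strand of the genome) for the 221 coding exon peaks and the 221 intron peaks. GC content peaks at 51.97% and 50.6% at the 2 kinds of summit, while the coding share peaks at exon summits and dips at intron summits.

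The members were next compared with all 19560707 coding bases that meet the same position rules, called eligible bases here, in 18313 of 19973 genes. The window of 50 bp on either side had a median GC content of 50.5% at members (middle 50% from 46.5% to 55.4%) and 40.6% over eligible bases (36.6% to 45.5%). At 60% or more lay 28 members (12.7%) but 0.760% of eligible bases, and under 40% lay 15 members (6.79%) but 44.9% of eligible bases. The range ran from 31.7% in F57F5.3 to 72.3% in grsp-1, whose summit sequence is printed above. The host genes as a whole were also richer, with a median of 47.3% over their coding sequence against 42.5% over all genes. Since GC content differed this much, the shares of eligible bases that follow are also given weighted to the members' GC content. The medians that follow are not weighted.

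The exons that held summits were long. Their median coding length was 384 bp, against 272 bp for the exon of an eligible base, and the summit lay a median of 106 bp from the nearer exon edge, against 60 bp. Exons of 300 bp or more held 65.6% of members, 45.6% of eligible bases and 59.2% of eligible bases at the same GC content. Exons under 150 bp held 5.88%, 22.02% and 12.8%. First coding exons held 13 members, inner exons 131, last exons 69, and genes with a single coding exon held 8. No share of eligible bases was computed for these counts. The rule leaves out sequence near gene starts, so the count in first exons partly follows from the choice.

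Summits tended to the later part of the coding sequence. The median position was 66.9% of the way from start to stop codon, against 52.7% for eligible bases, which themselves leave out the start of most genes. The last 40% of the coding sequence held 56.1% of members, 41.7% of eligible bases and 44.3% at the same GC content. The median distance to the annotated 3′ end of the gene was 943 bp against 1562 bp. The distance from the 5′ end was close, 1737 bp against 1837 bp. Host coding sequences had a median of 1428 bp against 1659 bp.

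Host genes also stood out in codon use. The codon adaptation index measures how closely a gene's codons follow those of a reference set, here the cytosolic ribosomal protein genes, and runs up to 1. Its median was 0.301 over host genes and 0.253 over all genes, and 53 hosts (25.7%) were in the top 10% of all genes. The highest-scoring 20% of eligible bases held 49.3% of members, against 38.1% at the same GC content. At the ends of the range were col-93 with 0.803 and F40G9.19 with 0.154. Expression was not measured in these data.

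**Figure D4:**
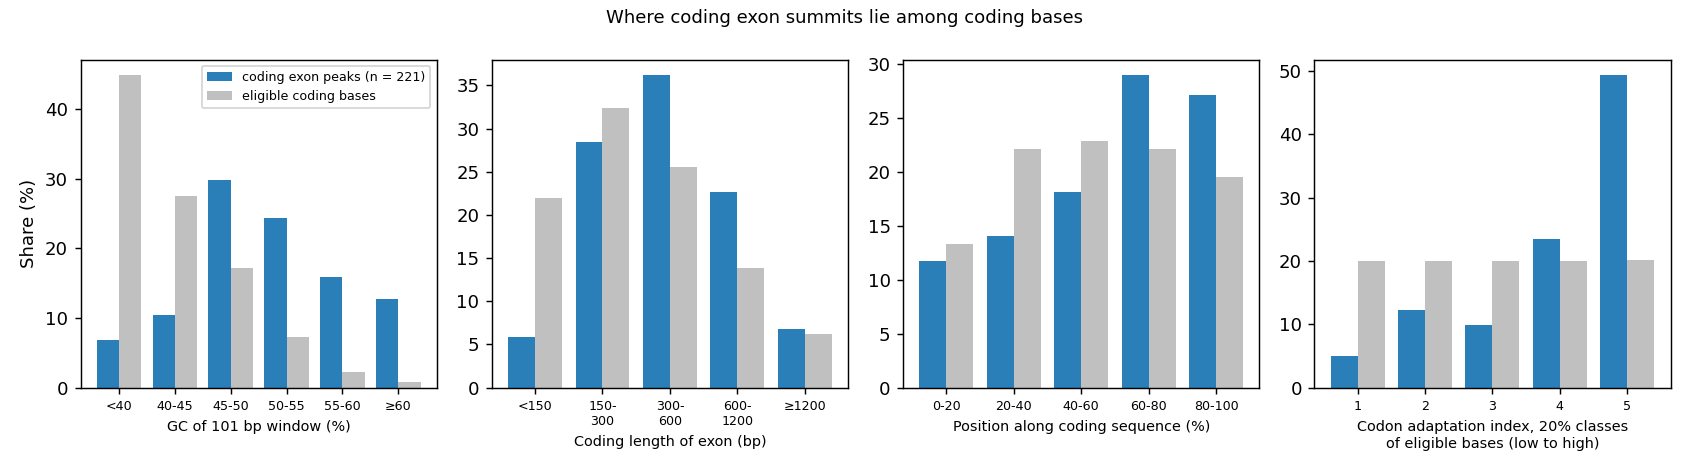
Share (%) of the 221 members (blue) and of eligible coding bases (grey) by GC content within 50 bp, coding length of the exon, position along the coding sequence and 20% class of the codon adaptation index. Members exceed eligible bases at high GC content, in longer exons, in the last 40% of the coding sequence and in the highest 20% class, where they reach 49.3%.

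By chromosome, 34 members lay on I, 41 on II, 43 on III, 34 on IV, 50 on V and 19 on X. X held 8.60% of the members, 15.4% of eligible bases and 14.4% at the same GC content. These shares are descriptions, since position was part of the choice. Within 5 kb of another member lay 44 members, a count for which no background was computed.

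Among gene families, cuticle collagens had the highest share of host genes. Of 176 collagen genes in the list 13 held 14 members, which is 7.39% of the genes against 1.03% (206 of 19973) of all genes. Eligible bases weighted to the members' GC content would place 12.8 members in them, so the count was close to what their base content alone gives. The strongest lay in col-77 with a signal of 102.3 (ranks 892 and 546) and in col-93 with 94.7 (ranks 1137 and 1002). The member in col-77 was the only one of the 14 in a replicate's list, that of replicate 2. The others, in col-39, dpy-2, col-51, col-8, col-13, bli-6, col-81, col-104, col-122, lon-3 and col-105, had signals from 71.1 to 86.1. Their coding GC content at the summit ran from 50.5% in dpy-2 to 70.3% in col-105. These genes form a large family of related copies, and in col-13 65.8% of the 50-base words of the peak and in col-93 41.1% occur more than once in the genome, where the placement of reads is uncertain.

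Genes of protein synthesis, folding and breakdown had larger shares of hosts than all genes, on counts of 3 members each. Ribosomal protein genes had 3 hosts of 81, rps-15 (89.7), rps-1 (79.5) and rpl-21 (70.8). They are short, so that only 42 of them have any eligible base, and 0.441 members would fall there at the same GC content. Translation factors and tRNA synthetases had 2 hosts of 70, the elongation factor eef-2 (92.4, in the list of replicate 1) and cars-1, with 3 members against 1.11 at the same GC content. Chaperones had 2 of 68, hsp-110 and the chaperonin subunit gene cct-7 (78.4, in the list of replicate 1), with 3 members against 0.887. In the proteasome and ubiquitin list 3 of 61 were hosts, among them the 20S subunit gene pbs-1 (86.1) and rpn-2 of the regulatory particle (80.3), with 3 members against 0.775.

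Structural genes included very long ones. Cytoskeletal and motor genes had 4 hosts of 66, led by the spectraplakin vab-10 (93.2, in the list of replicate 1) and the intermediate filament gene ifc-2 (83.3), with tbb-2 and dhc-1, and 3.31 members would fall there at the same GC content. The sarcomere list had unc-89, the obscurin homologue (84.6), alone of 52 genes, against 2.92 members at the same GC content. The matrix list had mup-4, a transmembrane protein of epidermal attachments (85.8), alone of 21, against 1.84 members. The clathrin heavy chain gene chc-1 (91.5) was the only host of 62 trafficking genes, against 1.18 members at the same GC content.

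Genes of the germ line and of gene regulation followed. The germ line list had 3 hosts of 90 with 5 members, against 1.44 at the same GC content, in prg-1, in the P granule gene pgl-3 (91.3, in the list of replicate 1) and in the major sperm protein gene msp-32 (76.4). The transcription and chromatin list had 6 hosts of 188 and 6.06 members at the same GC content. Its strongest were pqn-51 (85.5) and pqn-48 (84.8). These and pqn-65 are listed by symbol for glutamine- and asparagine-rich stretches, which name no role in transcription. The list also held the deacetylase gene hda-2 and the methyltransferase family genes set-16 and set-26. Splicing genes had prp-39 (86.4) and prp-6 (79.3) of 56, against 0.971 members at the same GC content. Kinases and phosphatases had 3 of 115, among them gsp-4, a phosphatase gene of sperm (94.8), and the Polo kinase gene plk-1 (84.7). At the same GC content 2.26 members would fall there. Homeobox and bHLH genes had ceh-22 (87.3) of 106, against 0.902 members. Nuclear hormone receptors had nhr-14 (72.1) of 269, against 1.78 members at the same GC content.

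In metabolism, the glycolysis list had gpd-3, which encodes glyceraldehyde 3-phosphate dehydrogenase (95.4, in the list of replicate 1), of 19. Lipid synthesis had acs-19 (73.1) of 47. At the same GC content 0.323 members would fall in the glycolysis list and 1.16 in that of lipid synthesis. Some large families had few hosts or none. Chemosensory receptors had no host among 1371 genes, where 4.02 members would fall at the same GC content. F-box and MATH-BTB genes had fbxb-14 (101.9, in the list of replicate 2) of 412, against 1.31 members at the same GC content, and C-type lectins had clec-123 (71.7) of 240, against 2.40. Histone, vitellogenin, respiratory chain, nuclear pore, ion channel, heterochronic and DM domain genes had none, with at most 1.58 members at the same GC content in each of these lists. With counts this small, no list is set apart from another. In sex determination, where DM domain factors are best known, the receptor gene tra-2 held a member of signal 95.6 in its last exon. That member ranked 554 in replicate 1, whose list holds it, and 5673 in replicate 2, and was named after its value was seen.

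**Figure D5:**
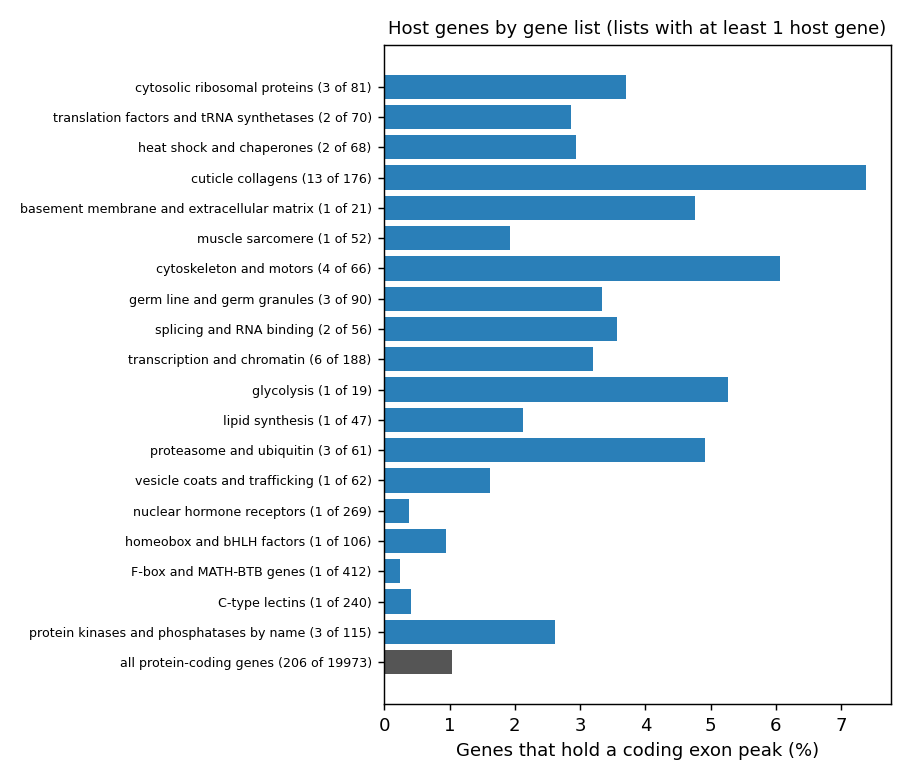
Share of the genes of each list that hold a coding exon peak (%), for the lists with at least 1 host gene, with hosts and genes counted in brackets and all protein-coding genes in grey. Cuticle collagens are highest at 7.39% against 1.03% of all genes.

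Some hosts also had a peak at their own start. A conservative summit lay in the promoter window of 16 of the 206 host genes, or 7.77%, against 2.55% of all protein-coding genes. Both shares count summits of any class, those at small RNA genes included. They included gpd-3, pgl-3, rps-1, pqn-51, set-16 and gei-4. In rpc-2, also among them, the coding exon peak overlaps a peak of the promoter class. The other 190 host genes had no summit in that window.

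The motif ACAATGT, the core that DM domain proteins are known to prefer, was within 50 bp of the summit in 0 of 221 members, which allows a share of up to 1.36%. Among 193673 eligible windows of the same length 2.01% held it, and 1.38% at the same GC content. The limit is one-sided, from 3 counts, and a two-sided limit would be higher. A shortage against windows of the same GC content was thus not shown. The KLF/SP site CCGCCC was in 10 members (4.52%), against 1.26% of eligible windows and 4.28% at the same GC content. The E-box CAGCTG was in 17 (7.69%), against 3.52% and 6.80%, among them dos-3, col-77 and col-8. The repeat GAGAGA was in 9 (4.07%), against 5.32% and 5.43%, and the E-box CACGTG in 7 (3.17%), against 2.49% and 4.35%. TATAAA was in 2 (0.905%), against 5.601% and 1.54%, and AGATAA in 5 (2.26%), against 4.64% and 2.07%. TAATTA was in 1 (0.452%), against 2.18% and 0.561%, and TGACTCA in 2 (0.905%), against 0.942% and 0.767%. All were searched on both strands. Of all words of 6 bases, the one furthest above its share at the same GC content, picked after its value was seen, was ATCCTC, on either strand, in 32 members (14.5%) against 8.26%.

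At the edges of the rule, the member in acs-19 lay 3 bp outside a promoter window (signal 73.1), and a summit in Y43B11AR.3, 3 bp inside one, was left out (121.5). The member nearest to a small RNA gene was that in plpr-1, 255 bp away, and a summit in W09D6.5 at 187 bp was left out (94.3). The promoter window left out 67 summits in coding sequence and the distance to small RNA genes 9.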

How the data were processed

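Per the labels, 2 biological replicates of transgenic L4 larvae were measured by ChIP-seq on assembly ce11. The authors deposited peak lists per replicate and for both combined, thresholded at an irreproducible discovery rate (IDR) of 0.01 and ranked. The labels and file notes name no aligner or peak caller. Each list holds the authors' signal per peak, not scaled between lists, the authors' score set from the IDR, and a deposited −log10 q-value, which supports no result here. The deposited ranked lists add a −log10 IDR. Depth is unknown.

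Genes came from Ensembl and bases from the RefSeq sequence of the same assembly. Peak ends lay within its chromosome lengths. Positions are 1-based. Each member was given the annotated coding transcript of its host gene, and no member had more than 1 host. Overlap with a replicate's list meant at least 1 bp. Composition was compared between the coding bases within 50 bp of the summit (at least 30) and the rest of the transcript's coding sequence (at least 100) with two-sided exact sign tests, adjusted over 3 measures. Members of the same gene share a transcript. The p-values are over peaks and say nothing of how worms vary. Shares at the same GC content weight eligible bases to the members' windows. Intervals are exact (Clopper-Pearson) 95% intervals, and the limit for a count of 0 uses 3 counts. They cover counting only.

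The members, 27 gene lists and 9 motifs were chosen with earlier results of these data known. Lists match gene symbols. Named were the 12 members of highest signal, members in both replicates' lists, hosts of 2 or more, the 2 strongest of each list, members at the edges of the rule and those near dmd-8 or unc-119. Any other gene was named after its value was seen. As alternatives the calculations were repeated with the optimal list (1556 peaks), each replicate's list, peaks of higher signal, and other windows, distances and overlaps. Tests were tested on simulated data. The tools were scipy 1.17.1 and biopython 1.88 for tests and sequences, matplotlib 3.10.9 for figures and Python 3.11.15 with pandas 2.3.3 and numpy 2.4.6.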

Additional observations from a re-analysis of the deposited data

How the results depend on the processing

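The number of coding exon peaks was 46 in the upper 50% of the conservative list by signal, and 29 to 32 when a single replicate's thresholded list was used. It was 223 in the optimal list, and 164 to 246 with promoter windows of 2000 and 500 bp. The share of members in either replicate's list was 56.5% in the upper 50% by signal, and 13.4% to 17.9% under the other alternatives, against 14.5%. GC content and first and second position GC kept their direction and passed in all 15 alternatives each, 3 of them chosen after seeing the data. GC at the third position did not pass in any of its 15 alternatives and turned direction with the list of replicate 1 alone (-3.29 points, and -3.29 to 2.86 over the replicates left out), which holds 32 such peaks. The cause was not tested. No paired analysis was possible because the samples form a single group. Depth could not be read from peak lists, so how far it limits the replicates' lists was not tested.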
